A study of Mus musculus with 20 samples.

Results

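The granzymes are serine proteases, and perforin is the pore-forming protein stored with them in the granules of cytotoxic lymphocytes. In the tumor table of this study 9 of 20188 listed genes belong to the set described here. They are the 6 genes of the chromosome 14 cluster, *Gzmb*, *Gzmc*, *Gzmd*, *Gzme*, *Gzmf* and *Gzmg*, and 3 genes elsewhere in the genome, *Gzma*, *Gzmk* and the perforin gene *Prf1*. They were picked by symbol with their values in these same tumors already known, so the tumor comparison of the members is given as a description, with no test.

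Mvt1 is a mouse mammary carcinoma line. Its cells carried either a scramble shRNA (scr) or the shRNA sh4 against *Rnaseh2c*, which encodes a subunit of the RNase H2 complex, and both lines were selected with puromycin. Each group thus comes from 1 transduced line with 1 shRNA, and the knockdown was in the implanted cells, not in the mouse. The lines were grown in a mammary fat pad of female FVB mice, about 6 weeks old when obtained, and tumors labelled day 30 were taken. mRNA was read from small sections of 3 scr and 3 sh4 tumors, 1 of each group from each of 3 experiments, and total RNA from 3 plates of each line in culture. Nothing in the labels says that the plates were separate transductions, so the spread between plates may be technical. The 8 exome libraries of lung metastases were not used here.

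Perforin opens the membrane of a target cell so that granzymes can enter it. *Gzmb*, the best known member of the cluster, cleaves after aspartate, while *Gzma* and *Gzmk* are tryptases with other substrates. *Gzmc* to *Gzmg* are rodent genes that lie side by side with *Gzmb* and are expressed by activated cytotoxic and natural killer (NK) cells.

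The cluster genes lie on the minus strand of chromosome 14 within 144.6 kb (NCBIM37, the build also called mm9). In order of position they are *Gzme* at chr14:56736456-56739468, *Gzmd* at chr14:56748393-56751445, *Gzmg* at chr14:56775419-56778416, *Gzmf* at chr14:56824103-56830244, *Gzmc* at chr14:56850238-56853493 and *Gzmb* at chr14:56877693-56881097. *Gzma* (chr13:113884033-113891187) and *Gzmk* (chr13:113961816-114016116) are neighbours on the minus strand of chromosome 13, and *Prf1* (chr10:60760584-60767011) is on the plus strand of chromosome 10.

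How far reads can tell the cluster genes apart depends on how alike they are, so the start of each coding sequence is shown, 90 bases from the GENCODE vM1 transcripts of NCBIM37. Capitals mark bases that differ from *Gzmd* at the same place.
Gzmd: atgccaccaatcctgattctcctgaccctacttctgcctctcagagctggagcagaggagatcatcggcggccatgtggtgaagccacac
Gzme: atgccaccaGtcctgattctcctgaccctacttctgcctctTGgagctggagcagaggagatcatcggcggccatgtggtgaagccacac
Gzmg: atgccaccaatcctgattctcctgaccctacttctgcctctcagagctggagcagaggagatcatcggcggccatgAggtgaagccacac
Gzmf: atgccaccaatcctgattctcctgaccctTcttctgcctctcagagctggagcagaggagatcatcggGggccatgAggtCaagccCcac
Gzmc: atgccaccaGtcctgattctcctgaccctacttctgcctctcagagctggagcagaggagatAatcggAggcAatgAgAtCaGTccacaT
Gzmb: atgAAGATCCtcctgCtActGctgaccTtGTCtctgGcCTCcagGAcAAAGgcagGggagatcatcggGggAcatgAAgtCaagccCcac

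In this stretch *Gzmg* differed from *Gzmd* at 1 base, *Gzme* at 3, *Gzmf* at 5, *Gzmc* at 10 and *Gzmb* at 31. Over the whole coding sequence *Gzmd* and *Gzme* were 93.8% identical and *Gzmd* and *Gzmg* 86.9%, whereas *Gzmb* shared 65.4% to 68.4% with *Gzmd* to *Gzmg* and 76.3% with *Gzmc*. *Gzma* was 52.9% to 54.7% identical to *Gzmb*, *Gzmc* and *Gzmd*. Of all windows of 50 bases in a transcript, 21.9% in *Gzmd*, 20.5% in *Gzme*, 19.8% in *Gzmg*, 7.5% in *Gzmf* and 4.0% in *Gzmc* also occurred in another gene's transcript, against 0.0% in *Gzmb*, *Gzma*, *Gzmk* and *Prf1*. At 100 bases the share was 0.2% in *Gzmd* and *Gzmg* and 0.0% in the others. How reads that fit several genes were counted is not given in the sources used here, so the single values of *Gzmd*, *Gzme* and *Gzmg* are less certain than their joint level.

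All tumor values are RPKM, reads scaled by the authors to gene length and read number, so levels of different genes can be set side by side. Differences are of mean log2(RPKM + 0.5), sh4 minus scr, with the standard error (SE) from limma, and they understate the change of genes with low values. *Rnaseh2c*, the shRNA target, was at 25.9 to 52.0 RPKM in the scr and 10.2 to 22.4 RPKM in the sh4 tumors, without overlap. No read numbers are given for the tumors, so the depth is unknown, and RPKM summed to between 399938 and 484868 per tumor. Limma tested the 13487 genes averaging 0.1 RPKM or more and called 0 at an adjusted p under 0.05, a background of 0.0%. At an unadjusted p under 0.05, 291 were higher and 273 lower. Together these are 4.18% of the genes tested, the share beside which the counts of the lists below stand. All 9 members passed this filter on low values, *Gzmk* only through its sh4 tumors (mean 0.285 RPKM, against 0.0316 RPKM in scr).

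*Gzmd* to *Gzmg* were the members with the largest differences on the log2(RPKM + 0.5) scale, with a mean RPKM 4.89 to 7.95 times lower in sh4 tumors. *Gzmg*, which had the largest, was at 25.2, 18.0 and 6.71 RPKM in scr tumors 1 to 3 and at 3.31, 0.635 and 2.34 RPKM in sh4 tumors 1 to 3. The lowest scr tumor stood above the highest sh4 tumor, and the means differed 7.95-fold (log2 difference -2.71, SE 0.58). *Gzmd* was at 17.2, 10.8 and 4.92 RPKM in the scr and 2.30, 0.732 and 2.28 RPKM in the sh4 tumors. Its groups did not overlap either, at a log2 difference of -2.27 (SE 0.49).

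*Gzmf* ranged more widely in the scr tumors, with 28.8, 10.9 and 5.90 RPKM against 4.25, 1.34 and 1.84 RPKM in the sh4 tumors (log2 difference -2.24, SE 0.57). *Gzme* was at 15.5, 8.56 and 5.80 RPKM in scr and 2.23, 1.08 and 2.81 RPKM in sh4 tumors (log2 difference -2.0, SE 0.41). In all 4 genes scr tumor 1 was highest, then scr tumors 2 and 3, and sh4 tumor 2 was lowest, so the scr tumors differed among themselves as well. *Gzmg* in the 6 tumors spanned 39.7-fold and *Gzme* 14.4-fold.

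*Gzmc* was the most abundant member in each of the 6 tumors. It was at 61.7, 20.5 and 12.4 RPKM in the scr tumors and at 9.67, 14.2 and 10.5 RPKM under sh4. The means were 31.5 ± 26.4 and 11.5 ± 2.44 RPKM (SD, n = 3 each). The groups overlapped, since sh4 tumor 2 was above scr tumor 3, and the log2 difference of -1.12 (SE 0.52) became -0.48 without scr tumor 1. *Gzmb* was at 6.26, 4.43 and 4.84 RPKM in the scr and 5.39, 1.79 and 3.10 RPKM in the sh4 tumors. Here sh4 tumor 1 lay among the scr tumors, and the log2 difference of -0.62 (SE 0.35) went to -0.97 on leaving out sh4 tumor 1 and to -0.29 on leaving out sh4 tumor 2.

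Of the 6 cluster genes, 5 were at least 2-fold lower in sh4 tumors on the log2(RPKM + 0.5) scale, where 0.564% of all genes tested were. In 4 of the 6 all sh4 tumors lay below all scr tumors, where 4.98% of all genes did. Both counts come from the contrast that led to the choice of the genes.

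Outside the cluster the members differed from each other. *Prf1* was at 3.49, 2.34 and 2.1 RPKM in the scr and 1.68, 1.05 and 1.95 RPKM in the sh4 tumors. All sh4 values lay below all scr values, at a log2 difference of -0.61 (SE 0.27), with 1.95 RPKM in sh4 tumor 3 close to 2.1 RPKM in scr tumor 3. *Gzma* was at 3.34, 6.60 and 3.65 RPKM in the scr and 4.6, 7.36 and 9.39 RPKM in the sh4 tumors. It was higher in the sh4 tumor of each experiment but overlapped between groups, with a log2 difference of 0.60 (SE 0.33) that was 0.39 without sh4 tumor 3.

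*Gzmk* was barely present. It was listed at 0 in scr tumors 1 and 2 and at 0.0948 RPKM in scr tumor 3, against 0.355, 0.427 and 0.0712 RPKM in the sh4 tumors. These values were whole multiples of 0.0237 RPKM, to within 0.05 of a step, namely 0, 0, 4, 15, 18 and 3 steps. The number of reads behind 1 step is not known. The groups overlapped, and the log2 difference of 0.54 (SE 0.20) depends on the added 0.5. Of the members *Gzma*, *Gzmk* and *Prf1*, 1 (*Prf1*) was lower in all sh4 than in all scr tumors, where 4.98% of all genes tested were. None was higher in all sh4 tumors, where 4.19% were, and 3 genes are too few to set against these shares.

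**Figure D1:**
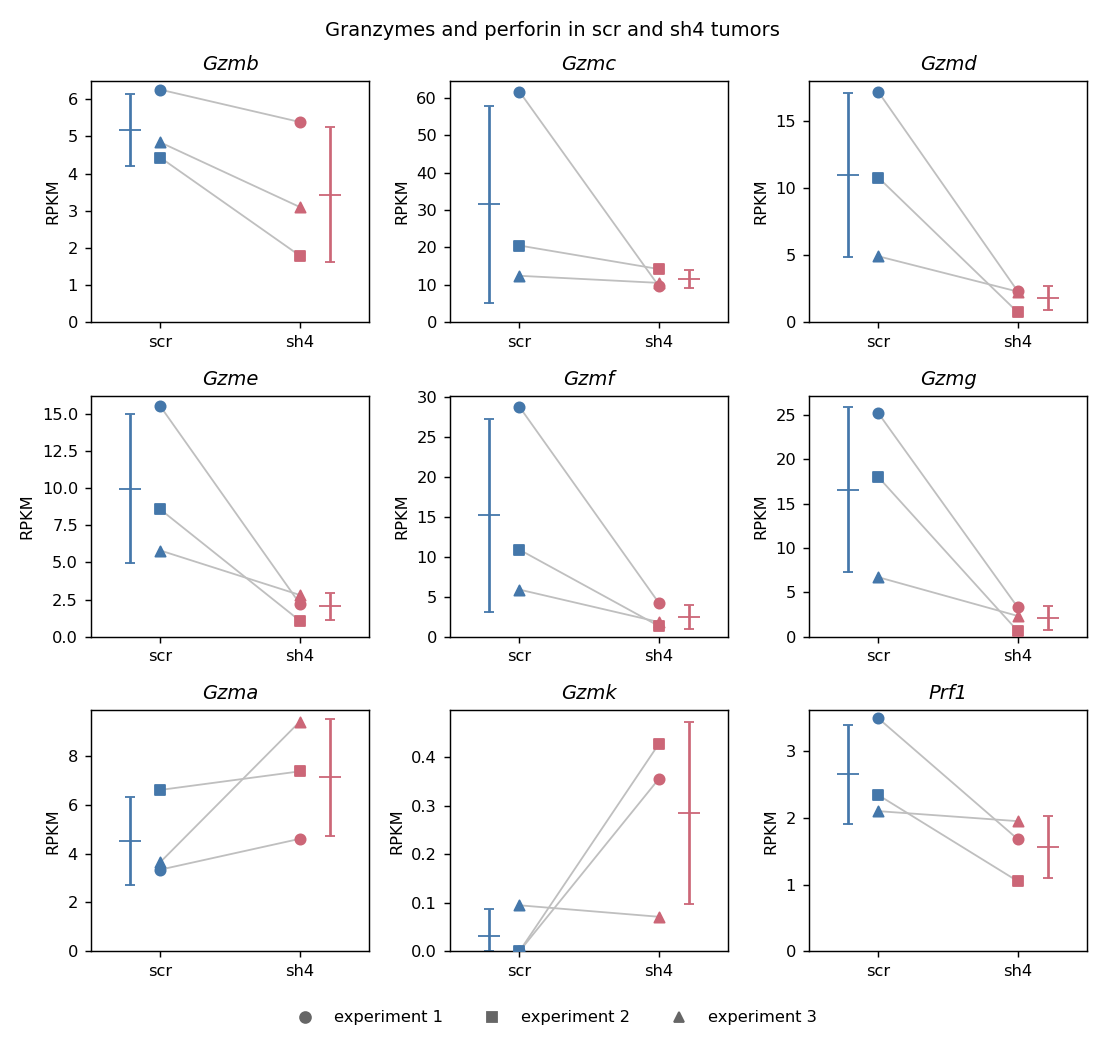
RPKM of the 9 members in each tumor (vertical axes, linear, each from 0), with scr tumors in blue and sh4 tumors in red, lines joining the tumors of 1 experiment, and the mean ± SD of each group (n = 3, cut at 0) beside the points. The groups are apart in *Gzmd*, *Gzme*, *Gzmf*, *Gzmg* and *Prf1*, and overlap in *Gzmb*, *Gzmc*, *Gzma* and *Gzmk*.

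Averaged over its genes, the cluster had a log2 difference of -1.83 and *Gzma*, *Gzmk* and *Prf1* together 0.17, so that the cluster minus those genes came to -2.0. Within experiments the cluster mean was -2.24, -2.33 and -0.91 in experiments 1 to 3, and the mean of the 3 genes outside it was 0.10, 0.05 and 0.37. The cluster was thus lower in the sh4 tumor of every experiment, least so in experiment 3, where scr tumor 3 had the lowest cluster level of its group. The mean over *Gzma*, *Gzmk* and *Prf1* joins genes of opposite sign and says little of any one of them. The sign of each member was the same under all 11 alternatives (scaling, pseudocount, ratio of means and left-out tumors). These alternatives reuse the tumors whose values led to the choice of the genes, so the constant sign is no separate result. Within experiments the sign of *Gzmk* was not constant, at 0.77, 0.89 and -0.06 in experiments 1 to 3, while each other member kept its sign.

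Summed RPKM of the cluster was 155, 73.2 and 40.6 in the scr tumors and 27.1, 19.8 and 22.9 in the sh4 tumors. The scr tumors thus differed from each other more than the sh4 tumors did. *Gzmd* to *Gzmg* made up 56.1%, 65.9% and 57.5% of that sum in scr tumors and 44.5%, 19.1% and 40.5% in sh4 tumors. *Gzmc* alone took 71.8% in sh4 tumor 2, where *Gzmd* to *Gzmg* were lowest. *Gzma* as a share of all granzymes in the set was 2.11%, 8.27% and 8.25% in scr and 14.3%, 26.6% and 29.0% in sh4 tumors.

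**Figure D2:**
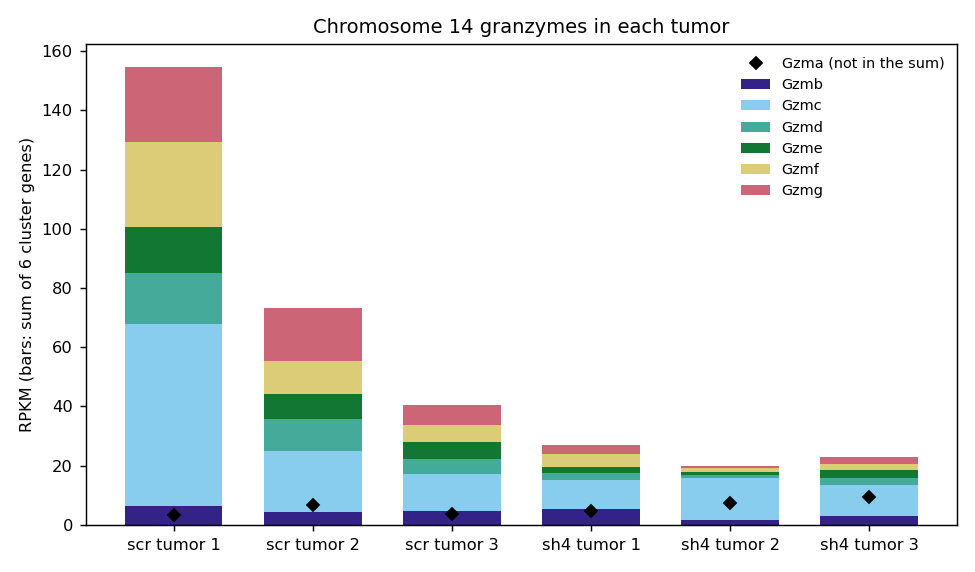
Stacked RPKM of the 6 cluster genes in each tumor (bars, vertical axis in RPKM from 0), with *Gzma* as a diamond that is not part of the sum. The sums run from 155 in scr tumor 1 to 19.8 in sh4 tumor 2, and *Gzma* is lowest in scr tumor 1 at 3.34 RPKM and highest in sh4 tumor 3 at 9.39 RPKM.

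Along chromosome 14 the genes with differences below -2 or at it, *Gzme*, *Gzmd*, *Gzmg* and *Gzmf*, are consecutive among the members, and *Gzmc* and *Gzmb* at the other end differed less. *Gzmn*, which lies between *Gzmg* and *Gzmf*, was listed at 0 in 5 tumors and at 0.0442 RPKM in sh4 tumor 2. On the other side of *Gzme* lies *Ctsg*, which encodes the granule protease cathepsin G. It was low, at 0.399, 0.295 and 0.105 RPKM in scr and 0.0840, 0.0210 and 0.0631 RPKM in sh4 tumors, and the 6 tumors stood in the same order as for *Gzmd*. The means differed 4.75-fold, while on the log2(RPKM + 0.5) scale, which shrinks the differences of genes this low, *Ctsg* had a difference of -0.45 (SE 0.17; limma adjusted p = 0.995).

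The mast cell proteases beyond *Ctsg* had log2 differences between -0.02 and 0.83. *Mcpt8*, a basophil protease 32.4 kb from *Gzme*, was at 0.712, 1.26 and 1.04 RPKM in scr and 0.237, 4.92 and 4.18 RPKM in sh4 tumors (log2 difference 0.83, SE 0.70, limma adjusted p = 0.995). *Mcpt2*, the most abundant of these neighbours, had a log2 difference of 0.76 (SE 0.94), and the chymase *Cma1* was at 42.3 ± 5.75 RPKM in scr and 44.3 ± 5.93 RPKM in sh4 tumors (SD, n = 3). Of the 8 neighbours 7 were tested, 5 with a positive and 2 with a negative difference, and limma called 0 of them (1 at an unadjusted p under 0.05). Their median log2 difference was 0.16, against -0.043 over all genes tested. The gene at an unadjusted p under 0.05 was *Ctsg*, which passed the filter only through its scr tumors (mean 0.266 RPKM, against 0.056 RPKM in sh4).

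**Figure D3:**
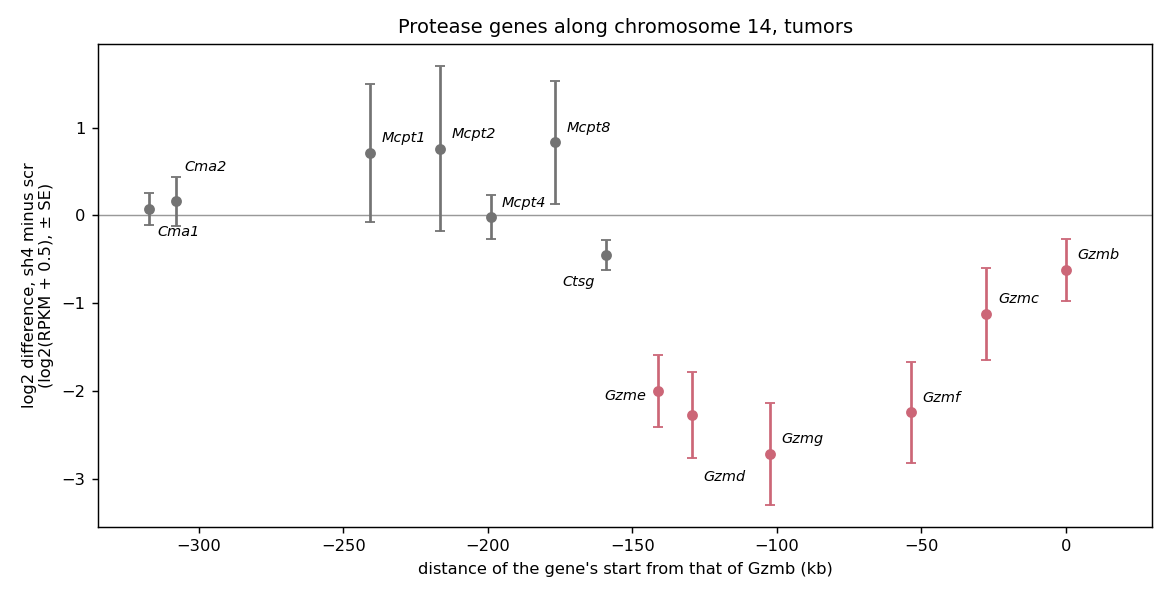
Log2 difference in tumors (sh4 minus scr, log2(RPKM + 0.5), ± SE, n = 3 per group) of protease genes along chromosome 14, against the distance of each gene's start coordinate from that of *Gzmb* in kb, members in red and neighbours in grey. *Gzme*, *Gzmd*, *Gzmg* and *Gzmf* lie between -2.0 and -2.71, and the neighbours between -0.45, for the low *Ctsg*, and 0.83.

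Cultured Mvt1 cells give the level of these genes without a host. Values there are FPKM in a separate table with another normalization, so levels are not compared across the tables. *Gzma*, *Gzmb*, *Gzmc* and *Gzmk* were listed at 0 in all 6 libraries, where 0 of 6 housekeeping genes looked at were at 0 in any. *Gzmd*, *Gzmf*, *Gzmg* and *Prf1* did not exceed 0.0666 FPKM in any library. Of the 9 members only *Gzme* had a mean of at least 0.1 FPKM. The shRNA target *Rnaseh2c* was at 5.83, 7.06 and 5.34 FPKM in scr and 3.19, 5.36 and 4.28 FPKM in sh4 cells. Its groups overlapped, and its log2 difference of -0.48 (SE 0.183) was not called (limma adjusted p = 0.236).

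*Gzme* was at 1.33, 1.72 and 1.54 FPKM in scr cells (mean 1.53 ± 0.193, SD, n = 3) and 1.59, 1.30 and 1.33 FPKM in sh4 cells (mean 1.41 ± 0.157, SD, n = 3). The plates of both lines overlapped. Its log2 difference was -0.09 (SE 0.102, 95% interval -0.34 to 0.16), with an adjusted p of 0.675 from limma over 21106 genes and p = 0.5 in an exact two-sided permutation test, for which 3 plates against 3 allow no p under 0.1. This contrast was not used to choose the genes. Limma called 110 genes higher and 160 lower in sh4 cells, 1.28% of those tested, and with median-ratio scaling 511 higher and 450 lower. Among Ensembl genes of the cell table, 24.4% were at or above the mean of *Gzme*, while its near copies *Gzmd* and *Gzmg* were near 0.

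*Mcpt8*, a neighbour of the cluster, and *Gzmm* were also present in the cells. *Mcpt8* was at 4.42, 5.00 and 5.30 FPKM in scr and 7.16, 7.33 and 5.66 FPKM in sh4 cells, so all sh4 plates were above all scr plates. Its log2 difference was 0.41 (SE 0.114) and did not pass (limma adjusted p = 0.136). *Gzmm*, a granzyme on chromosome 10 with its own substrate preference, was at 0.702 ± 0.189 FPKM in scr and 0.730 ± 0.115 FPKM in sh4 cells (SD, n = 3, limma adjusted p = 0.900). In tumors *Gzmm* was at 0.0722, 0.235 and 0.162 RPKM in scr and 0.271, 0.452 and 0.597 RPKM in sh4, higher in all sh4 tumors, with a log2 difference of 0.51 (SE 0.18) and a limma adjusted p of 0.995.

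The region before each gene's start was compared among the cluster genes, because *Gzmd* to *Gzmg* stood in nearly the same order over the tumors. RefSeq promoters (GRCm38.p6, not the build of the files) were found for all 9 members, and 250 bases before the start were searched on both strands. The stretch shown runs from the letters of an ETS core (GGAAGT, here reversed) to 10 bases past the last RUNX core (TGTGGT, also in its reversed form). For *Gzmb*, where no ETS core matched, it starts at the first RUNX core. Capitals mark these matches and, in *Gzmb*, an AP-1 match (TGANTCA). All lie on the minus strand and are written in the direction of the gene, *Gzme* at chr14:56120723-56120826, *Gzmd* at chr14:56132690-56132793, *Gzmg* at chr14:56159692-56159795, *Gzmf* at chr14:56211525-56211628, *Gzmc* at chr14:56234750-56234857 and *Gzmb* at chr14:56262353-56262427.
Gzme: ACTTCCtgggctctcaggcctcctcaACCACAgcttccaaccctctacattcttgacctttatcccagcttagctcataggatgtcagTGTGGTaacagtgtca
Gzmd: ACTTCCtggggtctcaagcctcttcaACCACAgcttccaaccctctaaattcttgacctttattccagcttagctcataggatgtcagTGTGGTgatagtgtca
Gzmg: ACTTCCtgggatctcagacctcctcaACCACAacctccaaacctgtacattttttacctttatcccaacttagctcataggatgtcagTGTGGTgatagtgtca
Gzmf: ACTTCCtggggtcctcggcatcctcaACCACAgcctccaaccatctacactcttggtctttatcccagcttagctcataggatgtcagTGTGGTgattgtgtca
Gzmc: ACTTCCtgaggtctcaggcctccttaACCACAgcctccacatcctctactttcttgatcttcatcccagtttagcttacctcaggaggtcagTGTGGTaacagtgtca
Gzmb: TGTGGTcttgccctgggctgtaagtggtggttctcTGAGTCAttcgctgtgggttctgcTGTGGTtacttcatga

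*Gzmc* to *Gzmg* shared 1 arrangement, a reversed RUNX core followed by a forward one, and *Gzmb* did not have it. The starts of the pair lay 62 bases apart in *Gzmd*, *Gzme*, *Gzmf* and *Gzmg* and 66 in *Gzmc*. A pair 60 to 70 bases apart, a range set after these spacings were seen, occurred in 11 of 32851 promoters, 5 of them members. These 5 promoters are related in sequence throughout, from 70.2% (*Gzmc* and *Gzmf*) to 94.8% (*Gzmd* and *Gzme*), while that of *Gzmb* was 44.1% to 47.5% identical to theirs. Any part of the arrangement in the tumor values was not tested.

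RUNX core letters were in 6 of 6 cluster promoters, 2 of 3 others (*Gzma* and *Prf1*) and 14% of all promoters. The ETS core was in 5 of 6, in *Gzmk* and *Prf1*, and in 19.7% of all. The AP-1 letters were found in *Gzmb* alone among the members and in 6.7% of all, and a T-box core (GGTGTGA) in *Gzmk* alone and in 3.3% of all. Letters of a STAT site (TTCNNNGAA) and a TATA box core (TATAAA) were in 0 of the 9 windows. No match overlapped one of another motif. These matches are letters in a window, and binding was not measured.

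Genes that process, pack and release granules were split in direction. Among 9 processing and packing genes, 4 log2 differences in tumors were positive and 5 negative (median -0.06), and limma called 0 (2 at an unadjusted p under 0.05). *Nkg7*, a granule membrane protein of cytotoxic cells, was at 6.87, 9.44 and 10.7 RPKM in scr and 13.0, 16.7 and 18.4 RPKM in sh4 tumors. All sh4 tumors were above all scr tumors, with a log2 difference of 0.81 (SE 0.23, limma adjusted p = 0.995). *Ctsw*, a cathepsin of cytotoxic lymphocytes, was at 7.16 ± 1.91 and 12.1 ± 3.38 RPKM (SD, n = 3, log2 difference 0.71). *Srgn*, the proteoglycan core that holds granzymes in the granule, was at 214 ± 57.1 RPKM in scr and 178 ± 102 RPKM in sh4 tumors, and the chaperone *Calr* at 301 ± 18.9 and 287 ± 16.3 RPKM (SD, n = 3).

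In the release machinery 8 of 9 genes were tested, 2 with a positive and 6 with a negative difference, between -0.35 (*Ap3b1*, an adaptor subunit of lysosomal sorting) and 0.12 (*Vamp8*, a granule SNARE protein). *Stxbp2*, which serves membrane fusion, differed by -0.01 and *Lyst*, a regulator of lysosome size, by -0.28. None of the 8 was called by limma, and 0 had an unadjusted p under 0.05. Limma likewise called 0 of the 5 inhibitor serpins tested, 1 positive and 4 negative (median -0.26, 0 at an unadjusted p under 0.05). The largest difference was in *Serpinb9b*, an intracellular inhibitor related to the granzyme B inhibitor *Serpinb9*, at 5.61, 6.0 and 4.71 RPKM in scr and 5.23, 2.80 and 1.83 RPKM in sh4 tumors (log2 difference -0.74, SE 0.33, limma adjusted p = 0.995). *Serpinb6a* and *Serpinb6b*, of the same serpin clade, differed by -0.26 and -0.28.

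Target-cell substrates and effectors split into 5 positive and 8 negative differences among 13, with a median of -0.13 and 0 called by limma (0 at an unadjusted p under 0.05). *Igf2r*, a receptor that can bind granzyme B, differed by -0.41. *Set* and *Anp32a*, partners in the complex that granzyme A cleaves, differed by 0.25 and 0.34.

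Of 12 cytokines and receptors tested that can induce granzymes, 8 were positive and 4 negative (median 0.14), and limma called 0 of them (2 at an unadjusted p under 0.05). *Il18* was at 48.9 ± 1.82 RPKM in scr and 36.7 ± 2.1 RPKM in sh4 tumors (SD, n = 3), lower in all sh4 tumors, with a log2 difference of -0.41 (SE 0.14, limma adjusted p = 0.995). Of the 12, 1 (*Il18*) was lower and 1 higher in all sh4 tumors, where 4.98% and 4.19% of all genes tested were. *Il2ra*, the high-affinity chain of the interleukin 2 receptor, differed by 0.59 and *Il12rb1*, a chain of the interleukin 12 receptor, by 0.43. Transcription factors of cytotoxic cells gave 5 positive and 4 negative differences among 9 tested (median 0.10, 0 called by limma, 0 at an unadjusted p under 0.05). *Stat4*, which signals below the interleukin 12 receptor, differed by 0.43 and was higher in all sh4 tumors. *Id2* and *Bhlhe40*, the most abundant of the list, differed by -0.38 and -0.39.

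In the cultured cells 46 genes of the 8 pathway lists were tested and 3 were called by limma, all lower in sh4, where 0.758% of all genes tested were called lower. *Il2rg*, the shared γ chain of the interleukin 2 and 15 receptors, went from 5.48 ± 0.128 FPKM in scr to 1.84 ± 0.0688 FPKM in sh4 cells (SD, n = 3), a log2 difference of -1.35 (SE 0.057, limma adjusted p = 0.00198). In tumors its log2 difference was -0.09 (SE 0.31). *Id2*, an inhibitor of helix-loop-helix factors, went from 5.93 ± 0.447 to 2.82 ± 0.142 FPKM (SD, n = 3, log2 difference -0.95, limma adjusted p = 0.0109). Leaving out 1 plate kept the call of *Il2rg* each time, but kept that of *Id2* only without scr plate 1 (adjusted p 0.0532 to 0.0700 without any other). *Bhlhe40*, a helix-loop-helix factor, differed by -0.37 (limma adjusted p = 0.0453) and was not called without any 1 of the 6 plates (adjusted p 0.0556 to 0.193).

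**Figure D4:**
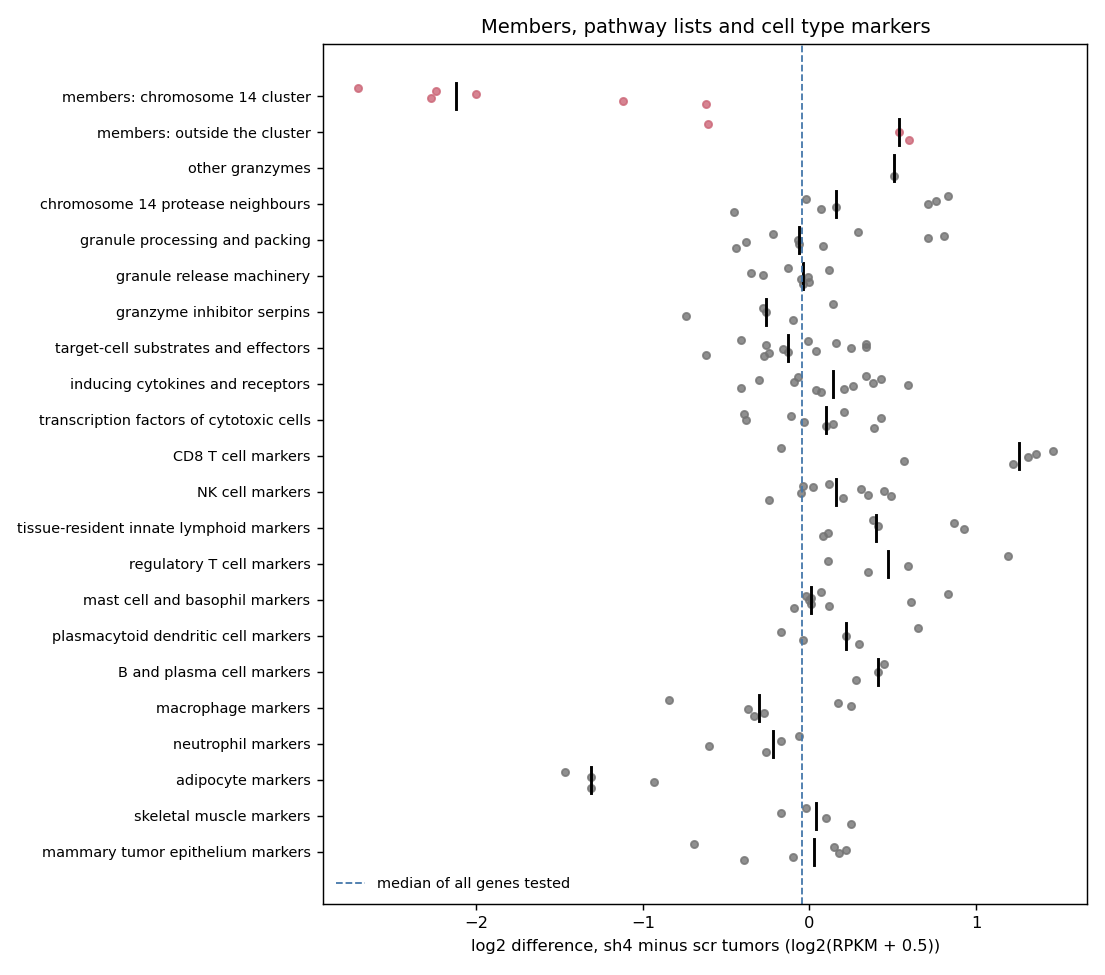
Log2 differences in tumors (horizontal axis, sh4 minus scr, log2(RPKM + 0.5)) of each gene tested in the members (red) and in each pathway or marker list (grey), with the list median as a black bar and the median of all genes tested (-0.043) as a dashed line. The cluster has a median of -2.12, the NK cell markers 0.16 and the CD8 T cell markers 1.26.

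Cell type markers were read beside the members, since in bulk RNA fewer cells of a type and less RNA per cell cannot be told apart. All 10 NK cell markers were measured and 0 of them were at 0 in any tumor. Their summed RPKM was 27.7 to 50 in scr and 40.0 to 53.1 in sh4 tumors, so the groups overlapped, and their median log2 difference was 0.16 (7 positive, 3 negative, 0 called by limma, 0 at an unadjusted p under 0.05). *Ncr1*, a receptor that defines NK cells, was at 5.86 ± 1.61 RPKM in scr and 5.15 ± 2.54 RPKM in sh4 tumors, and the chemokine *Xcl1* at 18.4 ± 4.85 and 19.6 ± 1.85 RPKM (SD, n = 3). *Klrd1*, *Klrk1* and *Klrc1*, receptors of NK and activated CD8 T cells, had log2 differences of 0.35, 0.49 and 0.45. The cluster sum divided by the NK marker sum was 3.09, 2.64 and 0.846 in scr tumors and 0.511, 0.496 and 0.495 in sh4 tumors. The quotient, formed after the values were seen, was close to equal in the sh4 tumors and uneven in the scr tumors.

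The 6 CD8 T cell markers were all measured, and 5 had a positive difference (median 1.26). Of the 6, 4 were at least 2-fold higher, where 0.504% of all genes tested were. Limma called 0 of them, and 4 had an unadjusted p under 0.05, where 4.18% of all genes tested did. *Cd8a* was at 0.573, 0.486 and 1.41 RPKM in scr and 1.98, 2.68 and 3.83 RPKM in sh4 tumors, and *Cd8b1* at 0.931, 1.59 and 3.16 against 3.96, 6.29 and 7.02 RPKM. The groups did not overlap in either gene, and *Cd3g*, part of the CD3 signalling unit of T cells, was 1.31 higher on the log2 scale without overlap. The 6 markers summed to 64.9 to 81.3 RPKM in scr and 85.1 to 105 RPKM in sh4 tumors. *Thy1*, the most abundant of them, differed by -0.17. Without *Thy1*, left out after its values were seen, the sums were 14 to 20.6 RPKM in scr and 31.8 to 60.1 RPKM in sh4 tumors and their part in the values of the members was not tested.

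The mast cell and basophil markers (9 of 10 measured) summed to 112 to 216 RPKM in scr and 162 to 169 RPKM in sh4 tumors, with a median difference of 0.01. Regulatory T cell markers (4 of 4) summed to 9.46 to 11 and 15.4 to 18.6 RPKM, and all 4 had a positive difference (median 0.47, 0 called by limma, 2 at an unadjusted p under 0.05). Tissue-resident innate lymphoid markers (6 of 7) summed to 8.25 to 13.6 and 13.9 to 23.3 RPKM, again with 6 positive differences (median 0.40, 0 called by limma, 2 at an unadjusted p under 0.05). B and plasma cell markers (5 of 5) summed to 2.12 to 3.1 and 3.5 to 5.59 RPKM, and the 3 tested had positive differences (median 0.41, 0 called by limma, 0 at an unadjusted p under 0.05). In these 3 lists the sums of the groups did not overlap, narrowly so for the innate lymphoid markers (13.6 against 13.9 RPKM). Of single genes tested, 4.19% had all sh4 above all scr tumors. *Foxp3*, the most abundant regulatory T cell marker, was at 5.71, 7.57 and 5.67 RPKM in scr and 6.2, 10.8 and 8.02 RPKM in sh4 tumors. Its groups overlapped, and of the 4 regulatory T cell markers only *Ctla4* was higher in all sh4 tumors. *Foxp3* was also present in the cultured cells, at 0.757 to 0.834 FPKM. The part of these 3 lists in the values of the members was not tested. Neutrophil markers (4 of 5) overlapped, at 10 to 16.8 and 4.8 to 16.9 RPKM (4 negative differences, median -0.22, 0 called by limma, 0 at an unadjusted p under 0.05). Plasmacytoid dendritic cell markers (5 of 5) overlapped, at 12.1 to 21.9 and 17.1 to 25.6 RPKM. Fat markers (4 of 4) were at 1660 RPKM in scr tumor 2 and at 23.6 to 226 RPKM in the other 5 tumors. All 4 had a negative difference (median -1.31, 0 called by limma, 0 at an unadjusted p under 0.05). Of them 3 were at least 2-fold lower, where 0.564% of all genes tested were, and the groups overlapped. Skeletal muscle markers (4 of 4) were at 62.0 RPKM in scr tumor 1 and at 1.86 to 21.3 RPKM elsewhere, with 2 positive and 2 negative differences (median 0.04). Epithelial tumor markers (6 of 6) summed to 741 to 1210 RPKM in scr and 623 to 948 RPKM in sh4 tumors, 3 with a positive and 3 with a negative difference. The keratin *Krt8* was at 468 ± 194 and 348 ± 86.3 RPKM, and *Epcam* at 1.41 ± 0.646 and 1.62 ± 0.518 RPKM (SD, n = 3). *Vegfa* was lower in all sh4 tumors (log2 difference -0.69, SE 0.23, limma adjusted p = 0.995). In the cultured cells *Krt8* was at 269 to 349 FPKM, while *Epcam* and *Cdh1* did not exceed 0.0228 FPKM in any library. The part of fat, muscle or tumor cell content in the values of the members was not tested. Without scr tumor 1 the cluster mean difference was -1.41, without scr tumor 2 -1.85, and without scr tumor 3, its lowest scr tumor, -2.22.

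The genes nearest to the mean profile of *Gzmd*, *Gzme*, *Gzmf* and *Gzmg* over the 6 tumors were sought among 10715 genes averaging 1 RPKM or more, by the root mean square difference of log2(RPKM + 0.5) about each gene's mean. *Cd209f*, a C-type lectin of the DC-SIGN family, was nearest at 0.32, followed by *F13a1* (coagulation factor XIII subunit A, 0.59), *Vsig4* (a complement receptor of macrophages, 0.62), *Tmem8* (0.63) and *Cd209b* (a lectin of the same family, 0.64). *Gzmc* stood at 0.84, *Prf1* at 0.94, *Gzmb* at 0.95, *Gzmk* at 1.62 and *Gzma* at 1.67 from the same profile.

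*Cd209f* was at 44.5, 23.1 and 8.81 RPKM in scr and 8.09, 3.74 and 4.80 RPKM in sh4 tumors. As for *Gzmd* to *Gzmg*, scr tumor 1 was highest and sh4 tumor 2 lowest. *Cd209f* was picked for its likeness to the profile of those granzymes, so this shared order is no separate result. In *Cd209f* scr tumor 3 was close to sh4 tumor 1. *F13a1* was at 64.7, 55.3 and 31.1 against 38.6, 9.77 and 14.2 RPKM, with sh4 tumor 1 above scr tumor 3. *Cd209f* and *Cd209b* were listed at 0 in all 6 cell libraries. Macrophage markers as a list (6 of 7 measured) summed to 983 to 1160 RPKM in scr and 1080 to 1420 RPKM in sh4 tumors. Of their differences 2 were positive and 4 negative (median -0.30, 0 called by limma, 0 at an unadjusted p under 0.05). The most abundant of them, *C1qa* and *C1qb*, differed by 0.25 and 0.17. *Cd163*, a scavenger receptor of tissue macrophages, had the largest difference of that list, -0.84 (SE 0.44, limma adjusted p = 0.995). Its groups overlapped, with 4.32 RPKM in sh4 tumor 1 and 2.51 RPKM in scr tumor 3.

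**Figure D5:**
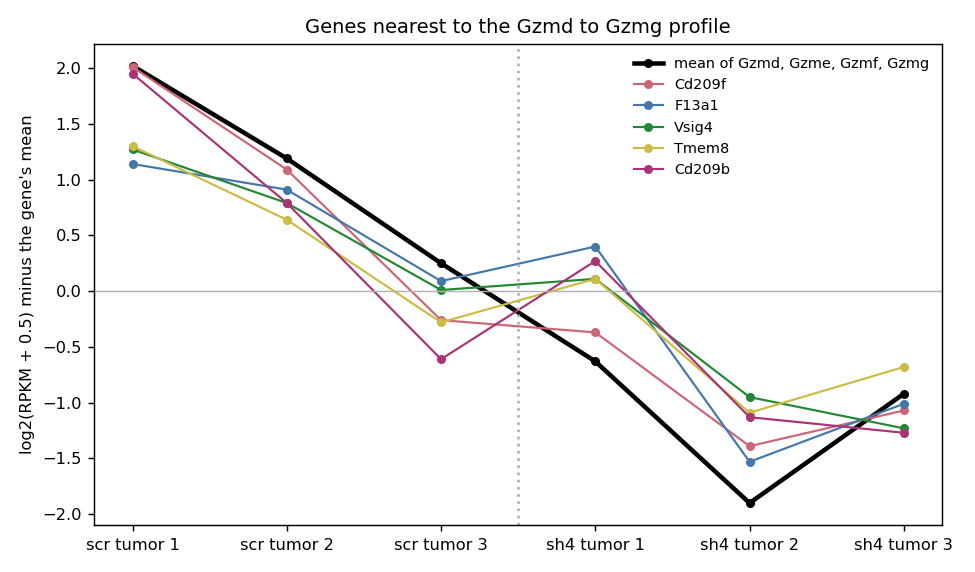
log2(RPKM + 0.5) minus each gene's mean (vertical axis) in the 6 tumors, for the mean of *Gzmd*, *Gzme*, *Gzmf* and *Gzmg* (thick black line) and the 5 nearest other genes. The black line runs from 2.02 in scr tumor 1 to -1.90 in sh4 tumor 2, and *Cd209f* from 2.01 to -1.39 in the same tumors.

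The mean profile of *Gzma*, *Gzmk* and *Prf1* was nearly flat, from -0.19 in scr tumor 3 to 0.18 in sh4 tumor 3, because the genes differ in direction. The genes nearest to it, *Slx1b*, *Tbpl1*, *Vrk1*, *Rnmt* and *Mphosph6*, at 0.05 to 0.06, were likewise nearly level over the tumors.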

How the data were processed

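The tumor values are RPKM, deposited by the authors as 1 table of 6 tumors. Per the methods, Trimmomatic trimmed the reads, Tophat placed them on mm9 and the Ensembl v70 transcripts, and the Partek Genomics Suite served for the analysis. The cell values are FPKM, deposited by the authors for total RNA of 6 plates. Tophat and DESeq2 are named for it in the methods, while the submitters' processing notes name, with no role given, TopHat2 2.1.0, Bowtie, BWA, GATK and STAR 2.7. DESeq2 needs counts, so it was not used. Read numbers are not given, so precision rests on the spread between replicates.

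A pseudocount of 0.5 was added before log2, genes averaging under 0.1 were dropped, and within each table limma 3.58.1 (R 4.3.3, trend on, Benjamini-Hochberg adjustment) set sh4 against scr. The procedure was tested on simulated data. The members and lists were chosen with earlier results of these data known. From each pathway list the text names the 2 genes with the highest mean and the 2 with the largest difference in tumors, of which 1 gene is not reported here. Cell type marker lists are given as sums, and *Ctsg* and the markers named from them were picked after their values were seen. For the cells, 50667 Ensembl genes were used, of which 32709 had a symbol in the reference. Positions came from GENCODE vM1 on NCBIM37 and alignments from Biopython 1.88.

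Tumor numbers pair the groups, because each number marks 1 experiment. Correlations of deviations from the group means were 0.138, 0.330 and -0.117 for the 3 pairs. For tumors of different experiments they ran from -0.298 to 0.293. The SE and p of single genes in tumors come from limma without this pairing.

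Alternatives were other pseudocounts, filters and scalings, omission of each library in turn, limma with no trend, a block for the replicate number, a log2 ratio of mean RPKM, the cluster without *Gzmb* and the cluster as a sum. Those for *Gzme* in cells were added after the values were seen. All sample columns of both tables entered.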

Additional observations from a re-analysis of the deposited data

How the results depend on the processing

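The cluster mean stayed at -2.22 to -1.41 with any 1 tumor left out, and its distance from *Gzma*, *Gzmk* and *Prf1* at -2.34 to -1.58. The mean of those 3 genes ranged from 0.12 to 0.23, was 0.46 with a pseudocount of 0.1 and 1.02 as a log2 ratio of mean RPKM, where the distance was -3.12. *Gzmk* alone was then at 3.17, and at 1.47 with the smaller pseudocount, since its scr values are at or near 0. Limma called 0 genes in tumors, 0 with any 1 tumor left out, and 7 with no filter on low values. With the replicate block, limma called 0 genes in tumors (413 higher and 498 lower at an unadjusted p under 0.05) and 0 in cells (1375 and 1438), and so it changed no call in tumors. Plate numbers of the cells share only a number (correlations -0.0607, -0.0755 and -0.0730), and with that block *Il2rg* had an adjusted p of 0.0908, *Id2* 0.171 and *Bhlhe40* 0.263.

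The 270 genes called in cells became 64 with no filter, 408 at a mean of at least 1, 1219 with quantile normalization, 961 with median-ratio scaling and 171 without the trend. With 1 plate left out they ranged from 2 to 248: 7 without scr plate 2, 2 without scr plate 3, and 15, 18 and 15 without sh4 plates 1, 2 and 3. *Gzme* in cells was called under none of its 14 alternatives, at -0.16 to -0.02. With read numbers unknown, depth cannot be set against any of these values, and the cause of the moved counts was not tested.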
